A study of Mus musculus with 29 samples.

Results

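Lcn2, Saa3, Serpina3n, Hp and Ptx3 are 5 acute-phase genes, whose secreted products increase in inflamed tissue or in plasma. They were found by symbol among the 25746 Ensembl genes counted in 29 brain samples, and all 5 were present. The genes had been chosen on their higher read counts in stroked than in non-stroked mice in earlier results of these data, so that every stroke contrast below is given for them as a description with no test. All 5 passed the filter on low counts that left 17031 genes for testing. Lcn2, Saa3, Hp and Ptx3 passed through their stroked groups, as they had few reads or none in non-stroked tissue.

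The mice were 3 months old and of both sexes, and stroke was a photothrombotic lesion of the right sensorimotor cortex, in which a light-activated dye clots cortical vessels. Tissue of stroked mice was taken 21 days after injury. The non-stroked groups were 4 WT mice (C57BL/6), 3 Rag2-/- mice, in which mature B and T cells are missing, and 4 NSG mice, which carry the scid mutation, lack Il2rg on a NOD background and have no NK cells either. The stroked groups were 4 WT, 3 Rag2-/- and 3 NSG mice without drug, 3 WT mice given the calcineurin inhibitor tacrolimus by osmotic pump from the day of stroke (WT-Tacr acute), and 5 WT mice given tacrolimus from day 7 (WT-Tacr delayed). No tacrolimus-treated mouse without stroke was analysed here, so the 4 non-stroked WT mice were the reference for all 3 groups of stroked WT mice. By the study's methods the control RNA came from the contralesional side, by its results from naïve animals, and the neutral term non-stroked is used here. In the first case stroked and non-stroked samples could come from the same animal. The labels give no such pairing, and the tests took all samples as separate. The methods list 4 NSG mice for RNA sequencing, fewer than the NSG samples here, and each sample is called a mouse for brevity. NSG and WT mice differ in strain background as well as in immune cells, and these cannot be told apart. Nothing in the labels says more of replicates than that they are separate samples, so p-values measure the spread between these samples.

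Prefixes in the sample titles split the samples into 2 sets, Imm2 (20 samples) and TF (9 samples), called cohorts here. The labels do not say what the prefixes mark. Total counts per sample ranged from 32507506 to 43403413 in Imm2 and from 17789044 to 29928311 in TF, without overlap. All non-stroked, Rag2-/- and NSG samples were Imm2, all WT-Tacr delayed samples were TF, and stroked WT (replicates 1 and 2 Imm2, 3 and 4 TF) and WT-Tacr acute (replicate 1 Imm2, 2 and 3 TF) mice came from both. Levels are CPM, counts scaled to TMM-adjusted library sizes, and levels of different genes are compared only as CPM divided by exon length in kilobases (RPKM). The WT-Tacr acute mice differed widely in Gfap, a marker of reactive astrocytes. Replicates 1 and 2 were at 267 and 189 CPM, above the 102 to 172 CPM of non-stroked WT mice but much nearer to them than to stroked WT mice. Replicate 3 was at 928 CPM, within the 765 to 1144 CPM of stroked WT mice.

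The acute-phase response is a programme of gene expression set off by inflammatory cytokines such as IL-6, IL-1 and TNF. These act through STAT3, C/EBP and NF-kappaB factors, in the liver and also in cells of injured tissue. In the injured brain Serpina3n and Lcn2 are well known as genes of reactive astrocytes, while neutrophils and macrophages can also make Lcn2, and Ptx3 and Saa3 are made by macrophages and stromal cells.

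In GRCm38 with GENCODE M21, Lcn2 (ENSMUSG00000026822) lies at chr2:32384633-32388252 on the minus strand. Saa3 (ENSMUSG00000040026) lies at chr7:46711998-46715700 on the minus strand and Hp (ENSMUSG00000031722) at chr8:109575128-109579172 on the minus strand. Serpina3n (ENSMUSG00000021091) lies at chr12:104406729-104414329 on the plus strand, and Ptx3 (ENSMUSG00000027832) at chr3:66219910-66225805 on the plus strand, within the span of Veph1 on the opposite strand. Veph1 had 0 to 17 counts in every sample. The promoters are shown because cytokine-driven factors act there and the 5 genes were high in the same groups. RefSeq (GRCm38.p6) gave them for 4 of the 5 genes, not for Hp, as 250 bases before and 50 bases from the RefSeq start. That start is not the outermost GENCODE start: for Lcn2 it lies downstream of it, so that the window falls within the GENCODE gene span given above, and for the other 3 both starts lie close together. They were Lcn2 at chr2:32387690-32387989 (minus strand), Saa3 at chr7:46715627-46715926 (minus), Serpina3n at chr12:104406458-104406757 (plus) and Ptx3 at chr3:66219637-66219936 (plus). Capitals mark matches to the C/EBP-type motif TTGCNNAA on either strand in Lcn2, Saa3 and Ptx3, and to a NF-kappaB-type motif near the start of Ptx3.
Lcn2: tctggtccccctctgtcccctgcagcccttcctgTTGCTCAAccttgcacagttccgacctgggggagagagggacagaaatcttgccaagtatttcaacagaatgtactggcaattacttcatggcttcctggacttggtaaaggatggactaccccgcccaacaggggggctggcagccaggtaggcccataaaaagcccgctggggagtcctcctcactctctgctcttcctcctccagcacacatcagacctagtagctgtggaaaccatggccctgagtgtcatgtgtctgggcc
Saa3: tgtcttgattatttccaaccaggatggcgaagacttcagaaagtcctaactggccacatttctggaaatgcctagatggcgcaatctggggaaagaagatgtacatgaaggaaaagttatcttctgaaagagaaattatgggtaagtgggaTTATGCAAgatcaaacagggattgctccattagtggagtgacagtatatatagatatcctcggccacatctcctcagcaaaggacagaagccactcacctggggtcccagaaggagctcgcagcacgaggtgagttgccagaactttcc
Serpina3n: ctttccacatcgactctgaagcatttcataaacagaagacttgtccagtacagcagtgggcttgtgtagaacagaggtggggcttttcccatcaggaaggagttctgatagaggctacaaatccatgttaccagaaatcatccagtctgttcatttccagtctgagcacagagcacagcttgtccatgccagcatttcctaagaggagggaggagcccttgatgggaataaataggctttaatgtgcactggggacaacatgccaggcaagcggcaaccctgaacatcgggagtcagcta
Ptx3: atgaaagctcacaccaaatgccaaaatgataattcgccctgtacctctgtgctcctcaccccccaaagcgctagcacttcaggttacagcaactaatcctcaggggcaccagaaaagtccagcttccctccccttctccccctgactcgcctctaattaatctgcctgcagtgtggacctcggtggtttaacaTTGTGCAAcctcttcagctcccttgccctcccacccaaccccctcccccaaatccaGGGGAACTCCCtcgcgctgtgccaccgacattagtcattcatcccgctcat

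The C/EBP-type motif lay at -216 to -209 in Lcn2, at -99 to -92 in Saa3 and at -57 to -50 in Ptx3, counted from 0 at the start base, and 10.8% of 32851 promoters of the same length held one on either strand. The NF-kappaB-type matches in Ptx3 overlap each other, at -1 to 8 and 0 to 9, and 4.51% of promoters held one. No match to the STAT-type motif TTCNNNGAA (8.3% of promoters) or to TATAAA (13.6%) was found in any of the 4, and Serpina3n held none of the motifs searched. A match is a description of the letters and was not tested for function.

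Serpina3n encodes a secreted inhibitor of serine proteases and was the only 1 of the 5 with a substantial level without stroke. In non-stroked WT mice replicates 1, 3, 4 and 5 had 18.1, 16.9, 19.4 and 16.8 CPM. Non-stroked Rag2-/- mice had 11.7, 12.2 and 16.3 CPM, and non-stroked NSG mice had 45.7, 42.2, 59.2 and 45.3 CPM. These 3 non-stroked groups did not overlap, with NSG highest and Rag2-/- lowest. The highest Rag2-/- mouse (16.3 CPM) lay only just below the lowest WT mouse (16.8 CPM). Stroked WT mice had 94.3, 108, 181 and 206 CPM. WT-Tacr delayed mice had 177, 218, 193, 198 and 193 CPM, the narrowest spread of any stroked group for this gene relative to its mean (196 ± 14.7 CPM, SD, n = 5). WT-Tacr acute mice had 37.1, 12.3 and 146 CPM, so that replicate 2 was below and replicate 1 above the non-stroked WT samples. Stroked Rag2-/- mice had 203, 159 and 116 CPM and stroked NSG mice had 142, 227 and 108 CPM, each above all non-stroked mice of the same strain. The log2 fold change against non-stroked mice of the same strain was 3.05 (SE 0.43) in WT, 1.87 (SE 0.44) in WT-Tacr acute, 3.46 (SE 0.43) in WT-Tacr delayed, 3.57 (SE 0.51) in Rag2-/- and 1.73 (SE 0.43) in NSG mice.

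Lcn2 encodes lipocalin-2, which binds iron-carrying siderophores of bacteria. It had 1 to 11 reads in every non-stroked sample. Non-stroked WT mice had 0.0285, 0.0272, 0.292 and 0.22 CPM, Rag2-/- mice 0.0566, 0.0304 and 0.127 CPM, and NSG mice 0.263, 0.178, 0.312 and 0.0928 CPM. The 3 non-stroked groups overlapped. Stroked WT mice had 21.1, 40.4, 74.2 and 106 CPM. The pair of TF samples was above the Imm2 pair, as it was for each of the 5 genes except Saa3. WT-Tacr delayed mice had 69.5, 90.9, 63.5, 80.8 and 97.4 CPM. WT-Tacr acute mice had 8.47, 0.166 and 67.2 CPM, and replicate 2, with 4 reads, lay within the range of non-stroked WT mice. Stroked Rag2-/- mice had 41.6, 21.3 and 57.8 CPM, and stroked NSG mice had 82.4, 216 and 67 CPM, where replicate 2 was the highest of all 29 samples. The log2 fold change was 8.68 (SE 1.09) in WT, 7.41 (SE 1.12) in WT-Tacr acute, 9.09 (SE 1.08) in WT-Tacr delayed, 9.08 (SE 1.40) in Rag2-/- and 9.14 (SE 1.07) in NSG mice. The non-stroked side of these folds rests on 7 to 30 reads a group, and from pooled reads the fold in WT mice was 395, with an exact 95% interval of 258 to 639 for counting error only.

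Hp encodes haptoglobin, which binds free haemoglobin, and was low in every group. Non-stroked WT mice had 0, 0.0816, 0.0795 and 0 CPM (at most 3 reads), Rag2-/- mice 0.0283, 0.0912 and 0.222 CPM, and NSG mice 0, 0, 0.0567 and 0.0928 CPM. Stroked WT mice had 0.227, 0.361, 0.522 and 0.825 CPM, from 9 to 27 reads, and WT-Tacr delayed mice had 1.21, 0.945, 1.74, 0.951 and 1.29 CPM. These groups did not overlap, and each delayed mouse was above all other samples except WT-Tacr acute replicate 3. WT-Tacr acute mice had 0.17, 0 and 1.08 CPM, where 0 reads allow up to 0.125 CPM. Stroked Rag2-/- mice had 0.258, 0.36 and 0.337 CPM and stroked NSG mice 0.354, 0.593 and 0.153 CPM. Both lay above their non-stroked counterparts, in Rag2-/- mice by a small gap. From pooled reads the fold over non-stroked mice, with its exact 95% counting interval, was 11.3 (4.9 to 32) in WT, 9.36 (3.89 to 27.2) in WT-Tacr acute and 29.5 (13.2 to 81.6) in WT-Tacr delayed mice. It was 2.89 (1.42 to 6.33) in Rag2-/- and 10.8 (4.28 to 34.9) in NSG mice.

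Saa3 encodes an apolipoprotein of the serum amyloid A family. It had no read in any of the 4 non-stroked WT and 3 Rag2-/- samples, which allows up to 0.0823 and 0.0905 CPM a library on average (3 reads), and non-stroked NSG mice had 0.0292, 0.0254, 0 and 0.155 CPM. Stroked WT mice had 0.151, 0.889, 0.391 and 1.96 CPM, from 6 to 64 reads. WT-Tacr delayed mice had 1.85, 1.98, 2.9, 1.36 and 1.84 CPM. The 2 groups overlapped through the highest WT mouse. WT-Tacr acute mice had 0.122, 0.0416 and 2.05 CPM, with 1 read in replicate 2. Stroked Rag2-/- mice had 0.43, 0.693 and 0.674 CPM, and stroked NSG mice had 2.05, 2.35 and 0.918 CPM, the latter above all 3 Rag2-/- mice. Mean CPM was at least 10.3-fold higher in stroked WT, at least 8.96-fold in WT-Tacr acute, at least 24.1-fold in WT-Tacr delayed and at least 6.62-fold in Rag2-/- mice than 3 reads a non-stroked library would give. In NSG mice the ratio of pooled reads was 36.9, with an exact 95% counting interval of 17.6 to 92.9.

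Ptx3 encodes pentraxin 3, a soluble pattern recognition molecule that binds C1q. Non-stroked WT mice had 0.0569, 0.245, 0.106 and 0.11 CPM, Rag2-/- mice 0.425, 0.213 and 0.191 CPM, and NSG mice 0.263, 0.33, 0.227 and 0.247 CPM. Stroked WT mice had 0.934, 1.53, 3.26 and 5.35 CPM, and WT-Tacr delayed mice had 2.82, 3.09, 2.65, 2.53 and 4.12 CPM. Each of these mice was above every non-stroked mouse. WT-Tacr acute mice had 0.438, 0.125 and 4.09 CPM, and replicate 2, with 3 reads, lay within the non-stroked range. Stroked Rag2-/- mice had 2.29, 2 and 2.3 CPM, and stroked NSG mice had 3.29, 10.3 and 2.33 CPM. The NSG mouse with the highest Ptx3, replicate 2, was also the highest for Lcn2 and Serpina3n. The log2 fold change was 4.36 (SE 0.77) in WT, 3.51 (SE 0.82) in WT-Tacr acute, 4.51 (SE 0.76) in WT-Tacr delayed, 2.96 (SE 0.81) in Rag2-/- and 4.29 (SE 0.72) in NSG mice.

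**Figure D1:**
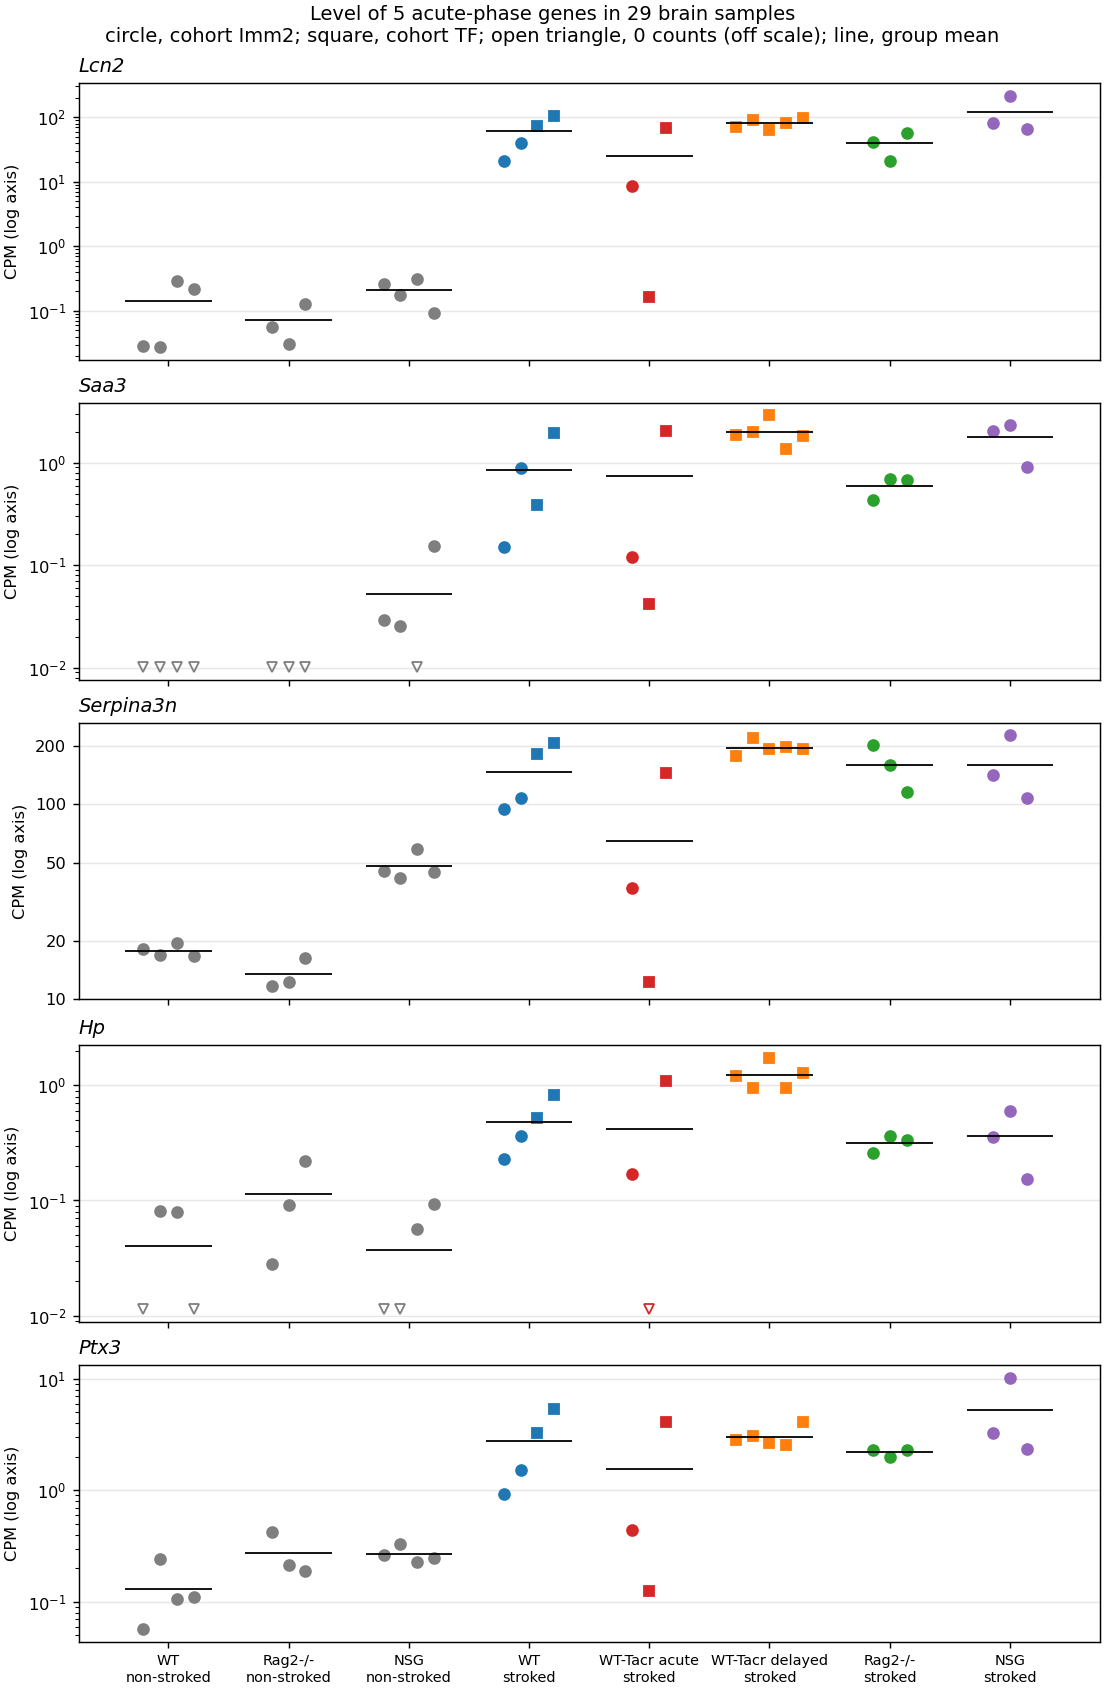
Level of each gene in each of the 29 samples, as CPM on a log axis, by group, with circles for Imm2 and squares for TF samples, open triangles for samples with 0 counts (off scale) and lines for group means. Serpina3n sits between 11.7 and 59.2 CPM without stroke, Lcn2 reaches from at most 0.312 CPM without stroke to 216 CPM, and in WT-Tacr acute mice the 3 points are spread over the whole range from the non-stroked to the stroked level.

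Per length, Serpina3n was the most abundant of the 5 in both states. In stroked WT mice it was at 71.4 ± 26.4 RPKM, followed by Lcn2 at 23.0 ± 14.3, Ptx3 at 1.03 ± 0.739, Saa3 at 0.325 ± 0.307 and Hp at 0.301 ± 0.160 RPKM (SD, n = 4). In non-stroked WT mice Serpina3n was at 8.62 ± 0.597 RPKM and Lcn2 at 0.0541 ± 0.0514 RPKM (SD, n = 4). Ordered by mean CPM, the groups next to each other differed without overlap for Serpina3n among the 3 non-stroked groups, for Saa3 between non-stroked NSG and stroked Rag2-/- mice, and for Hp between non-stroked and stroked Rag2-/- mice and between stroked WT and WT-Tacr delayed mice. For Lcn2 and Ptx3 every neighbouring pair overlapped, where the WT-Tacr acute group bridged the non-stroked and stroked levels. The share of all genes with such gaps was not computed, so the gaps named here and for single genes above are a description only.

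A gene was called when its adjusted p was under 0.05 and it changed by more than 1 on the log2 scale in either direction. The share of all 17031 genes called was 7.3% for stroke in WT, 2.58% in WT-Tacr acute, 15.5% in WT-Tacr delayed, 4.33% in Rag2-/- and 5.48% in NSG mice. Of the 5 genes, 5 met the same rule in WT, WT-Tacr acute, WT-Tacr delayed and NSG mice and 4 in Rag2-/- mice, where Hp did not (log2 fold change 1.48, SE 0.92). The genes were chosen for this contrast and nothing is read from these counts. All non-stroked samples belong to the Imm2 cohort, and within it stroked and non-stroked WT mice differed on the log2 scale by 7.71 for Lcn2, 2.51 for Serpina3n and 3.21 for Ptx3. For WT-Tacr acute mice, with 1 sample in that cohort, it was 5.86, 1.07 and 1.73. Without replicate 3 the WT-Tacr acute values fell to 4.97 for Lcn2, 0.48 for Serpina3n and 1.20 for Ptx3.

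**Figure D2:**
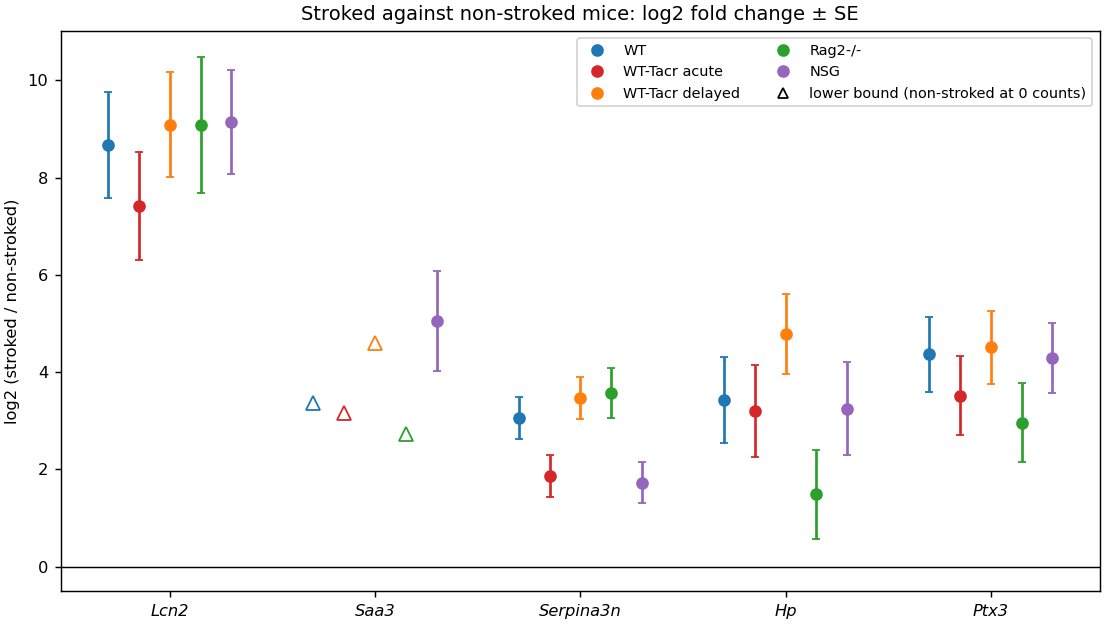
Log2 fold change of each gene, stroked against non-stroked mice of the same strain, in the 5 stroked groups, with bars for the SE and triangles for Saa3 lower bounds against 3 reads a library. Lcn2 lies between 7.41 and 9.14 in all 5 groups, while Serpina3n is at 1.73 in NSG and 1.87 in WT-Tacr acute mice and between 3.05 and 3.57 in the others.

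Markers of some cell types rose with these genes and those of others fell, and their part in the levels was not tested. In bulk tissue, fewer cells of a type and less RNA per cell cannot be told apart. The summed level of 12 neutrophil markers, all 12 with reads, was 6.94 to 10.4 CPM in non-stroked WT and 17.5 to 30.8 CPM in stroked WT mice, 27.5 to 40.5 CPM in WT-Tacr delayed and 8.32 to 28.6 CPM in WT-Tacr acute mice. It was 7.98 to 8.48 and 21.6 to 25.5 CPM in non-stroked and stroked Rag2-/- mice, and 8.36 to 9.16 and 23.3 to 44.7 CPM in NSG mice. Among these, S100a8 was at 0.197 ± 0.147 CPM in non-stroked WT, 0.936 ± 0.789 in stroked WT (SD, n = 4 each) and 1.83 ± 0.742 CPM in WT-Tacr delayed mice (SD, n = 5), and S100a9 at 0.216 ± 0.160, 1.16 ± 1.07 and 2.42 ± 0.803 CPM. Both were a small part of the sum, most of which came from other genes of the list, so it is not read as a neutrophil level. The defining neutrophil genes Ly6g, Elane and Retnlg had at most 10 reads in any sample, and Ly6g had 0 to 4. The summed microglia and macrophage markers were 190 to 221 CPM in non-stroked and 375 to 485 CPM in stroked WT mice, 474 to 620 CPM in WT-Tacr delayed and 242 to 441 CPM in WT-Tacr acute mice. Fibroblast and meningeal markers, among them collagens, summed to 181 to 253 CPM in non-stroked and 445 to 859 CPM in stroked WT mice and to 157 to 555 CPM in WT-Tacr acute mice. The 8 astrocyte markers, Gfap among them, summed to 5038 to 5707 CPM in non-stroked and 5787 to 7466 CPM in stroked WT mice. Their sum was 5372 to 6418 CPM in WT-Tacr delayed and 5355 to 5616 CPM in WT-Tacr acute mice, both overlapping non-stroked WT mice. Gfap alone was at 1015 to 1320 CPM in delayed mice. Endothelial markers were lower, at 77.5 to 136 CPM in stroked and 147 to 187 CPM in non-stroked WT mice. Neuron markers, which check the labelled brain tissue, summed to 8410 to 9327 CPM in non-stroked WT, 5909 to 7730 CPM in stroked WT, 5275 to 6158 CPM in WT-Tacr delayed and 6481 to 8894 CPM in WT-Tacr acute mice, so that stroked WT and delayed mice lay below non-stroked WT mice and delayed below acute mice without overlap. Choroid plexus markers varied within groups, from 5.08 to 1609 CPM over all samples.

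The comparison of WT-Tacr acute with stroked WT mice asks what tacrolimus from the day of stroke changed. All 5 genes had lower fitted levels, and none passed the test. The log2 fold change was -1.26 (SE 0.72, edgeR adjusted p = 0.468) for Lcn2, -1.18 (SE 0.44, adjusted p = 0.311) for Serpina3n and -0.85 (SE 0.65, adjusted p = 0.604) for Ptx3. It was -0.25 (SE 0.81, adjusted p = 0.934) for Saa3 and -0.23 (SE 0.72, adjusted p = 0.932) for Hp. Of all genes, 0% were called (0 genes by edgeR, 2168 at an unadjusted p below 0.05, and 2 by DESeq2). Within cohorts Lcn2 differed by -1.86 in Imm2 (edgeR adjusted p = 0.501) and -1.43 in TF (adjusted p = 0.566), and Serpina3n by -1.44 (adjusted p = 0.223) and -1.30 (adjusted p = 0.479). These values depended on single libraries. Without WT-Tacr acute replicate 2, the log2 fold change was 0.28 for Saa3 and 0.32 for Hp. Over the fits without 1 sample Lcn2 ran from -3.68 to -0.68 and Serpina3n from -2.55 to -0.69. The fit without replicate 3 keeps replicate 2, which lay within the non-stroked WT range for Lcn2 and Ptx3. Without WT-Tacr acute replicate 3, whose levels of the 5 genes were within or above the stroked WT range, 4 of the 5 genes were lower than in stroked WT mice, with a log2 fold change of -3.68 for Lcn2 (edgeR adjusted p = 0.00274), -2.55 for Serpina3n (adjusted p = 0.000199), -3.13 for Ptx3 (adjusted p = 0.00578) and -3.18 for Saa3 (adjusted p = 0.0404), and 689 genes were called in all.

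Tacrolimus from day 7 was compared with no drug in the same way. The log2 fold change of WT-Tacr delayed against stroked WT mice was 0.41 (SE 0.61, edgeR adjusted p = 0.71) for Lcn2, 0.41 (SE 0.38, adjusted p = 0.53) for Serpina3n and 0.14 (SE 0.55, adjusted p = 0.899) for Ptx3. It was 1.35 (SE 0.60, adjusted p = 0.22) for Hp and 1.22 (SE 0.69, adjusted p = 0.311) for Saa3. None passed the test, and 0% of all genes were called (0 by edgeR, 3455 at an unadjusted p below 0.05, and 24 by DESeq2). All delayed mice were TF samples. Against the 2 TF mice of the stroked WT group alone the log2 fold change was -0.16 for Lcn2, 0.02 for Serpina3n and -0.50 for Ptx3, with Hp at 0.84 and Saa3 at 0.72 (edgeR adjusted p = 1 for each to 3 digits).

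Serpina3n was higher with delayed than with acute tacrolimus, with a log2 fold change of 1.59 (SE 0.44, edgeR adjusted p = 0.0155), where 5.75% of all genes were called. The lowest delayed mouse (177 CPM) was above the highest acute mouse (146 CPM). The call was lost in a fit of only these groups (1.61, edgeR adjusted p = 0.109), within TF (1.33, adjusted p = 0.239), without acute replicate 1 (1.31, adjusted p = 0.126) and without acute replicate 2 (1.10, adjusted p = 0.0957). The other 4 genes were also higher in the fit but did not pass: Lcn2 at 1.68 (SE 0.71, edgeR adjusted p = 0.0922), Hp at 1.58 (SE 0.69, adjusted p = 0.0999), Saa3 at 1.47 (SE 0.79, adjusted p = 0.187) and Ptx3 at 0.99 (SE 0.64, adjusted p = 0.272). Without acute replicate 3 all 5 were called. Fits without 1 sample called up to 1927 of all genes, against 979 with all samples, so this count is not particular to the 5. Cell type markers also differed between these groups. Choroid plexus markers summed to 18.6 to 876 CPM (median 836) in delayed and 5.08 to 25.0 CPM in acute mice, with Ttr at 553 to 776 CPM in 4 of 5 delayed mice, 5.39 CPM in the other and at most 9.54 CPM in acute mice. Neuron markers were lower and microglia and macrophage markers higher in all delayed than in all acute mice. Gfap was also higher without overlap, at 1015 to 1320 CPM in delayed and 189 to 928 CPM in acute mice. So were fibroblast and meningeal markers, at 651 to 1956 and 157 to 555 CPM, while the summed astrocyte markers overlapped. The part of these markers in this contrast, the list genes below included, was not tested. This contrast and the comparisons of each drug group with stroked WT mice share samples and are not independent.

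An interaction contrast compared the stroke response of each immunodeficient strain with the response of WT mice. For Serpina3n the response differed from that of WT by 0.52 (SE 0.62, edgeR adjusted p = 0.953) in Rag2-/- mice and by -1.32 (SE 0.59, adjusted p = 0.357) in NSG mice. For Lcn2 it differed by 0.41 (SE 2.76, adjusted p = 0.988) and 0.46 (SE 2.20, adjusted p = 0.949). For Ptx3 it differed by -1.40 (SE 1.15, edgeR adjusted p = 0.95) in Rag2-/- and -0.07 (SE 0.87, adjusted p = 0.984) in NSG mice. For Hp it differed by -1.94 (SE 1.34, adjusted p = 0.95) and -0.18 (SE 1.73, adjusted p = 0.978). Saa3 gives no fitted value here, because non-stroked WT mice had no read. None of the 5 passed in either strain, beside 0% of all genes in Rag2-/- mice (0 by edgeR and by DESeq2, 713 at an unadjusted p below 0.05) and 0.0117% in NSG mice. These SEs are only approximate for Lcn2, Ptx3 and Hp, which had few non-stroked reads. They leave room for sizeable differences in either direction.

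Without stroke, Serpina3n was higher in NSG than in WT mice by 1.43 on the log2 scale (SE 0.41, edgeR adjusted p = 0.0244), and the 4 NSG mice were all above the 4 WT mice. In this contrast 3.36% of all genes were called. The call was lost without NSG replicate 3 (1.32, edgeR adjusted p = 0.0717) and without any of the 4 WT mice (adjusted p from 0.0508 to 0.0694). Gfap was also higher without overlap, at 225 to 304 CPM in NSG and 102 to 172 CPM in WT mice, and its part in the Serpina3n level was not tested. Lcn2 differed by 0.55 (SE 1.95, edgeR adjusted p = 0.916) and Ptx3 by 1.02 (SE 0.90, adjusted p = 0.56). Between non-stroked Rag2-/- and WT mice, 0.00587% of genes were called and none of the 5 genes was among them. Serpina3n differed by -0.41 (SE 0.45, edgeR adjusted p = 1), Lcn2 by -0.99 (SE 2.76, adjusted p = 1), Hp by 1.36 (SE 1.13, adjusted p = 1) and Ptx3 by 1.08 (SE 0.97, adjusted p = 1).

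**Figure D3:**
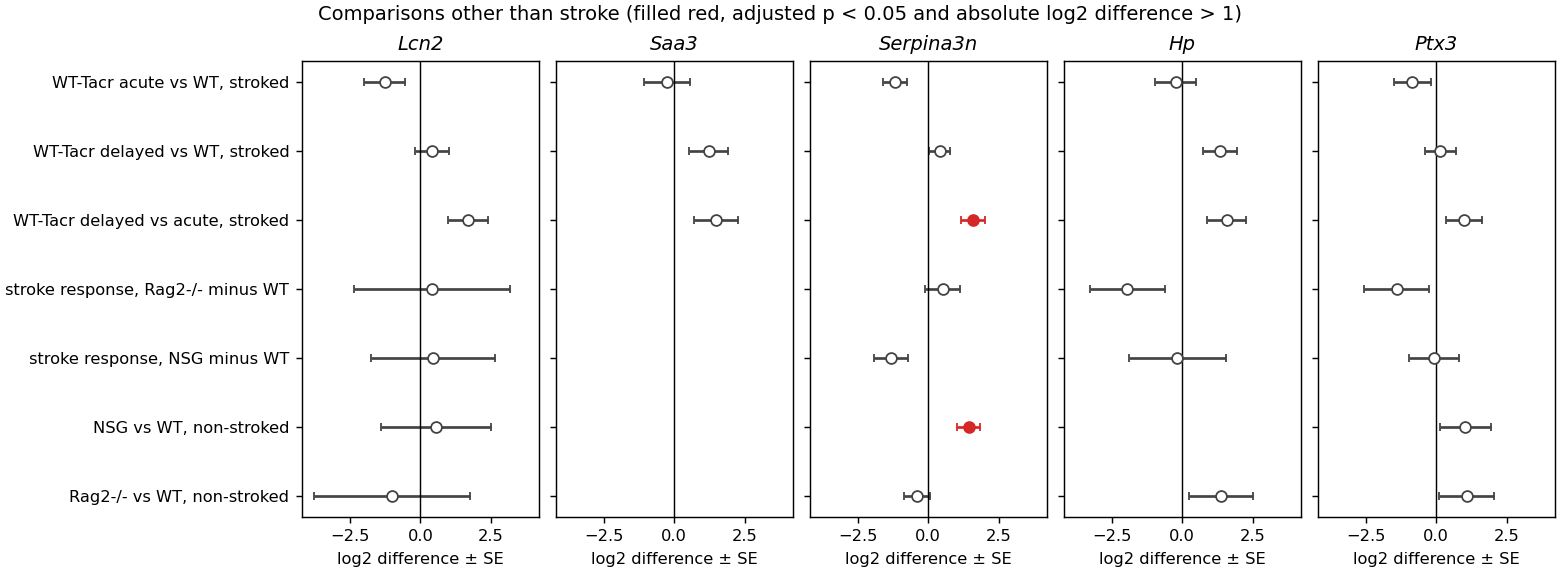
Log2 fold change with SE of each gene in the contrasts other than stroke against no stroke, with filled points for genes called by edgeR and no point where a group without reads, or groups of at most 3 reads a sample, give no fitted value. Only Serpina3n is called, at 1.59 for delayed against acute tacrolimus and at 1.43 for non-stroked NSG against WT mice, and all 5 genes lie below 0 for acute tacrolimus against no drug.

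Serpina3n lies in a cluster of closely related Serpina3 genes, of which 9 of 10 listed paralogs were in the files. Reads of such copies can be split between them, so their counts are uncertain. Serpina3m showed a strain difference. It had 54 to 72 reads in non-stroked and 118 to 327 in stroked NSG mice, and 0 to 4 reads in each of the other 22 samples. As a share of the reads of Serpina3m and Serpina3n together, it made up 3% to 3.64% in all 7 NSG samples, stroked and non-stroked, and 0% to 0.338% in the others. Whether NSG mice express Serpina3m, or reads of a NOD form of Serpina3n were counted there, was not tested. Without stroke, Serpina3m was at least 21.3-fold and Serpina3i at least 3.08-fold higher in NSG than in WT mice, where no read was found. Both passed the test. Serpina3m passed the filter on low counts only through the NSG samples, so its call adds nothing to these read counts.

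**Figure D4:**
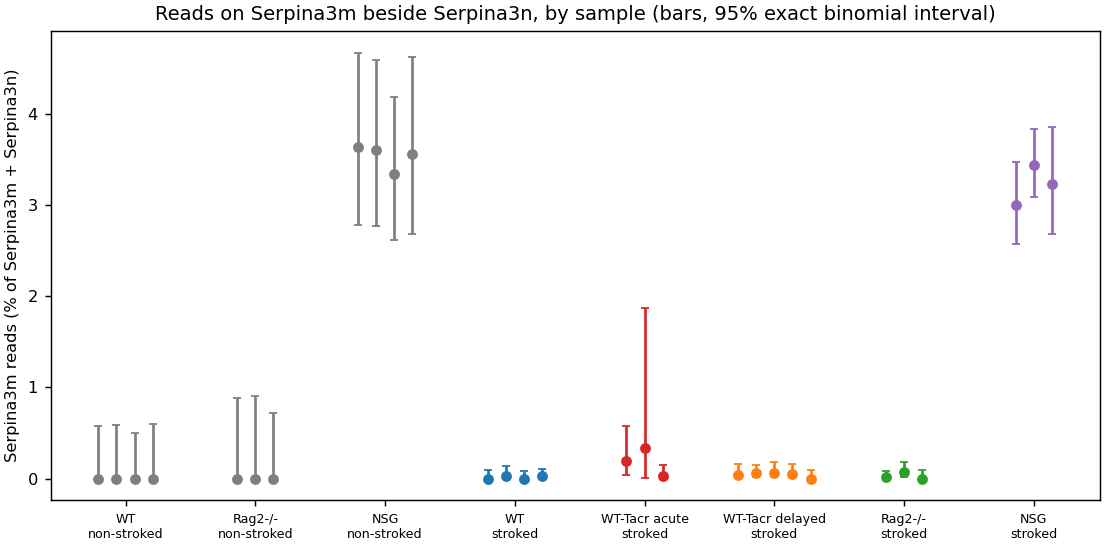
Serpina3m reads as a percentage of Serpina3m and Serpina3n reads in each of the 29 samples, by group, with exact 95% intervals for counting error. The 7 NSG samples sit between 3% and 3.64%, stroked and non-stroked, and the other 22 samples at or below 0.338%.

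After stroke in WT mice 2 of 4 tested paralogs rose. Serpina3i was at least 6.03-fold higher than 3 reads a library would give (8 to 26 reads in stroked WT mice), and Serpina3f was 13.9-fold higher, with an exact counting interval of 3.46 to 121. In WT-Tacr delayed mice all 4 tested paralogs passed the test, but Serpina3m had only 0 to 4 reads a sample there (0.0842 CPM on average), about what 3 reads a non-stroked library would give (0.0823 CPM), so no change is read from it. In WT-Tacr acute, Rag2-/- and NSG mice 2 each passed. These counts rest on few reads. In Rag2-/- mice the count was 1 without stroked replicate 3 and 0 without any other 1 of the 6 samples. In WT-Tacr acute mice it was 0 without acute replicate 3 and 1 without acute replicate 1 or non-stroked WT replicate 1, 4 or 5. In WT mice it was 1 without stroked replicate 1, 3 or 4 or non-stroked replicate 4 or 5 and with RLE normalization or no filter on low counts, and in NSG mice it was 1 without stroked replicate 2. When the fit held nothing but the pair of groups, it was 0 in WT, WT-Tacr acute and Rag2-/- and 2 in WT-Tacr delayed mice. Serpina3i was also higher with delayed than acute tacrolimus by 1.87 on the log2 scale.

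Of 26 other acute-phase proteins, 10 had enough reads for testing. Of these, 5 rose with stroke in WT, 3 in WT-Tacr acute, 5 in WT-Tacr delayed, 6 in Rag2-/- and 6 in NSG mice. None fell, and the counts of all genes that fell are given with the last list. The WT-Tacr acute count was 1 without acute replicate 3, with the cohort as a covariate or within Imm2 and 0 in a fit of only these groups, and the Rag2-/- count was 3 without stroked replicate 1. The median change in WT mice was 1.27 on the log2 scale, with genes at the floor set to their bounds, against 0.00 over all genes. The largest were the complement component C3 (7.48, SE 1.10, edgeR adjusted p = 5.45e-05) and the protease inhibitor A2m (4.97, SE 0.77, adjusted p = 7.62e-05). The metallothionein Mt2 rose by 2.20 (SE 0.25), the lipopolysaccharide-binding protein gene Lbp by 2.14 (SE 0.62) and the ferroxidase gene Cp by 1.54 (SE 0.33). Some classical liver acute-phase genes of this list were near absent, with no read of Apcs in 29 samples, at most 1 read of Crp, and at most 5 and 6 reads of Saa1 and Saa2 in any sample. In non-stroked NSG against WT mice 2 were called, Serpina1b (at least 7.72-fold higher) and Serpina1c (at least 3.12-fold), both with no read in these WT mice.

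Of 19 cytokines and receptors that induce the response, 18 were tested, and 11 rose with stroke in WT, 4 in WT-Tacr acute, 10 in WT-Tacr delayed, 10 in Rag2-/- and 9 in NSG mice, with a median of 1.10 on the log2 scale in WT mice. For stroke in WT-Tacr acute mice the count was 0 without acute replicate 3 or non-stroked WT replicate 1, 3 or 4, 1 without non-stroked WT replicate 5, 2 with no filter on low counts, and 0 with the cohort as a covariate, within Imm2 or in a fit of only these groups. It was 7 within Imm2 for WT, 6 with the covariate for WT-Tacr delayed, 5 without stroked replicate 1 for Rag2-/- (9 at most without any 1 sample) and 5 in a fit of only these groups for NSG mice. Il6 was not tested, as it had at most 0.155 CPM in any sample. Tnf rose by 3.59 (SE 0.76, edgeR adjusted p = 0.00141), the IL-6 family cytokine Osm by 2.67 (SE 0.49) and its receptor Osmr by 1.89 (SE 0.29). Il1b rose by 1.88 (SE 0.47) and the TNF receptor gene Tnfrsf1b by 1.83 (SE 0.30). With delayed against acute tacrolimus 6 were higher, namely Tnf (1.94), Osm (1.53), Tnfrsf1b (1.46), Il1a (1.38), Osmr (1.07) and Cntf (1.06).

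Of 15 signalling and transcription factor genes, all tested, 4 rose in WT, 3 in WT-Tacr acute, 6 in WT-Tacr delayed, 2 in Rag2-/- and 6 in NSG mice, with a median of 0.50 in WT. The WT-Tacr acute count was 1 without acute replicate 3 and 0 in a fit of only these groups, and the Rag2-/- count was 1 without stroked replicate 1. The NF-kappaB cofactor Bcl3 rose by 2.85 (SE 0.43), the STAT3 target and inhibitor Socs3 by 1.33 (SE 0.23), the C/EBP factor gene Cebpd by 1.16 (SE 0.37) and Nfkb2 by 1.07 (SE 0.24). None was called between delayed and acute tacrolimus, where 12 of the 15 had positive fitted values.

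Of 22 receptors and binding partners of the 5 proteins, 18 were tested, and 11 rose in WT, 10 in WT-Tacr acute, 14 in WT-Tacr delayed, 12 in Rag2-/- and 9 in NSG mice, with a median of 1.75 in WT. In WT-Tacr acute mice the count was 0 without acute replicate 3 and 6 without non-stroked WT replicate 1 or 5, 0 with the cohort as a covariate or in a fit of only these groups, and 1 within Imm2. In Rag2-/- mice it was 7 without stroked replicate 1. The scavenger receptor Cd36 rose by 4.04 (SE 0.83), the toll-like receptor Tlr2 by 2.73 (SE 0.39), and the C1q chains C1qc, C1qb and C1qa, which Ptx3 binds, by 2.29 (SE 0.29), 2.24 (SE 0.28) and 2.13 (SE 0.28). With delayed against acute tacrolimus 10 were higher, among them Cd36 (2.35), Tlr2 (1.75), the lipocalin receptor Lrp2 (1.39), Tlr4 (1.32), C1qc (1.29), C1qb (1.28), Fcgr1 (1.20), C1qa (1.18) and Fcgr3 (1.02). Over these 5 lists none of the genes fell in a stroke contrast. Of all 17031 tested genes, 92 fell in WT, 51 in WT-Tacr acute, 681 in WT-Tacr delayed, 19 in Rag2-/- and 80 in NSG mice. The absence of falls is therefore not read as particular to the lists. No list gene was called in the comparisons of tacrolimus with no drug or in the response contrasts. All list calls between delayed and acute tacrolimus were lost without acute replicate 1, without acute replicate 2, within TF and in a fit of only these groups. With the cohort as a covariate 1 of 2 other acute-phase proteins, 0 of 1 paralog, 2 of 6 cytokines and receptors and 6 of 10 binding partners were called.

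Among the 18 stroked mice the levels of the 5 genes were positively correlated, in part through single mice. All 10 pairs had a positive Pearson r of log2 CPM, from 0.756 to 0.936, and a Spearman rho from 0.608 to 0.940, and all 10 passed a permutation test (100000 resamples, two-sided, Benjamini-Hochberg over the 10 pairs). The genes had been chosen for their rise with stroke, and the share of other gene pairs that would pass was not computed. The resamples also exchanged mice between groups and cohorts. Passing is therefore not read as particular to these 5 genes. For Lcn2 and Ptx3 r was 0.936 and rho 0.940 (permutation p = 1e-05 for both, the smallest these resamples can give), and r was 0.891 without the 2 mice farthest from the median of Lcn2. For Lcn2 and Serpina3n r was 0.932 and rho 0.767, and r fell to 0.598 without those 2 mice. For Lcn2 and Hp r was 0.773 and rho 0.620, with 0.464 without them. Within Imm2 (n = 9) 8 of 10 pairs passed an exact permutation test by r and 3 by rho (Lcn2 with Saa3, Lcn2 with Ptx3 and Saa3 with Ptx3), with rho from 0.35 to 0.983, and r of Lcn2 and Hp was -0.0853 without the 2 farthest mice. Within TF (n = 9), 3 of 10 passed an exact permutation test by r and 0 by rho, with r from 0.852 to 0.995 but rho from -0.0167 to 0.717. WT-Tacr acute replicate 2 lay far below the other TF mice. Without that mouse, an alternative chosen after seeing the data, all 10 pairs passed over 17 mice, with r from 0.561 to 0.937. The 18 mice include groups with different means, and after each group's mean was subtracted r was 0.762 to 0.938 and passed for 10 pairs, while rho was 0.418 to 0.816 and passed for 9, all but Lcn2 with Saa3 (permutation test, adjusted p = 0.085).

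**Figure D5:**
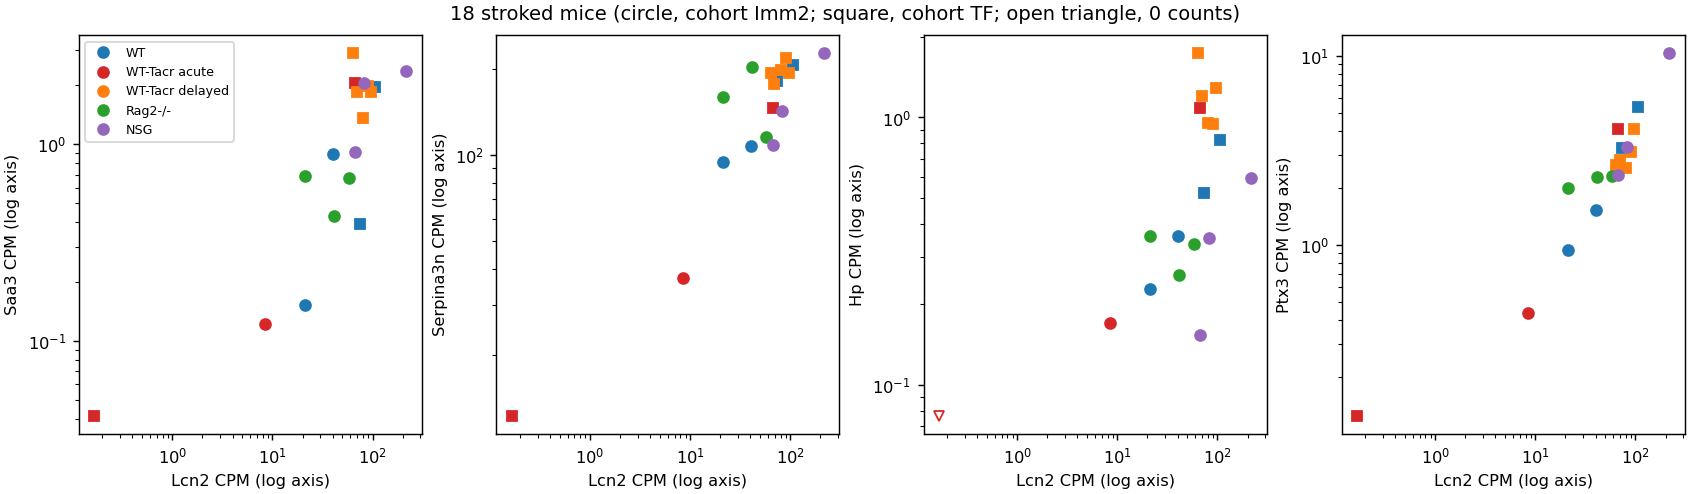
CPM of Saa3, Serpina3n, Hp and Ptx3 (log axes) against CPM of Lcn2 (log axis) in the 18 stroked mice, 1 point a mouse, coloured by group, with circles for Imm2, squares for TF and an open triangle for 0 counts of Hp. Lcn2 and Ptx3 rise together (r 0.936), and WT-Tacr acute replicate 2 is at the lower left of each panel.

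The tested genes whose log2 CPM was most like each of the 5 over the 18 stroked mice are given by Pearson r as a description, with all points sharing the cohorts and the low WT-Tacr acute mice. For Lcn2 they were Steap4 (0.963), C3 (0.957), Tgm1 (0.943), Cxcl16 (0.939) and Cd300lf (0.938). For Serpina3n they were Tgm1 (0.975), C3 (0.972), Cd22 (0.969), Tgif1 (0.966) and C4b (0.966). The genes C3 and Tgm1 thus stood on both lists. For Ptx3 they were Chil1 (0.946), Cd44 (0.942), Tgm1 (0.940), Timp1 (0.936) and Lcn2 (0.936). For Hp they included Wfdc17 (0.964), Ciita (0.932), Ms4a6d (0.930) and Gngt2 (0.921). For Saa3 they were Slc36a2 (0.937), Mmp3 (0.903), B430306N03Rik (0.902), Rftn1 (0.890) and Chil1 (0.889).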

How the data were processed

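RNA from brain tissue of 29 samples in 8 groups was selected for polyA and sequenced from stranded libraries, per the study's methods. The values used are raw counts per gene as deposited by the authors, whole numbers for 25746 Ensembl genes. The aligner, the genome build and the use of strand in counting are not given in the sources used here. Groups were taken from the sample labels. Symbols were found for 25635 IDs, and GENCODE M21 (GRCm38) gave positions.

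The main test was the quasi-likelihood F test of edgeR 4.0.16 (R 4.3.3) on TMM-normalized counts. Genes were filtered with filterByExpr, and all 8 groups and 17031 remaining genes entered 1 fit. P-values were adjusted by Benjamini-Hochberg over all of these genes, and calls needed an adjusted p under 0.05 and a change of more than 1 on the log2 scale. SEs were derived from the log2 fold change and its F statistic. For genes with few reads they are approximate and not comparable between contrasts. RPKM divides CPM by the union of exon lengths. A prior count of 2 was added before log2 CPM was taken for correlations. Folds against a group without reads were computed against 3 counts a library, and 95% intervals of pooled counts and shares are exact and cover counting error only. The pipeline was tested on simulated data.

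The 5 genes, the gene lists and the contrasts were chosen with earlier results of these data known. The text names all 5 genes, up to 5 called genes per list with the largest change for stroke in WT mice, list genes called in the other contrasts, and the 5 genes most like each of the 5. A few genes that this rule selects are not reported here. Genes of the lists that were named for their near absence were chosen after their values were seen. As alternatives, DESeq2 1.42.0, RLE scaling, an unfiltered table, the cohort as a covariate, fits of 1 cohort or of only the groups compared, no minimum fold change, a replicate block, another prior count, and leaving out each sample in turn were tried.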

Additional observations from a re-analysis of the deposited data

How the results depend on the processing

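With the cohort as a covariate, 1 of the 5 genes was called for stroke in WT-Tacr acute mice and 3 in WT-Tacr delayed mice, and within Imm2 1 was called in WT-Tacr acute mice. Leaving out each sample in turn gave 1 to 5 calls of the 5 genes for stroke in WT-Tacr acute mice (1 without acute replicate 3), 2 to 4 in Rag2-/- mice (2 without stroked replicate 1 or any 1 non-stroked mouse), 0 to 4 for acute tacrolimus against no drug (4 without acute replicate 3), 0 to 5 for delayed against acute tacrolimus and 0 to 1 for non-stroked NSG against WT mice. For delayed against acute tacrolimus, 0 of the 5 genes were called in a fit of only these groups and 0 within TF, where Serpina3n was at 1.61 and 1.33, and its log2 fold change ran from 1.10 to 2.95 without 1 sample. In non-stroked NSG against WT mice it ran from 1.32 to 1.49. Within TF 3 pairs of the 5 genes were correlated.

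Several values that had not passed a test changed sign. For delayed tacrolimus against no drug, the covariate gave -0.25 for Lcn2, -0.013 for Serpina3n and -0.58 for Ptx3, TF alone gave -0.16 for Lcn2 and -0.50 for Ptx3, and Ptx3 ran from -0.15 to 0.70 without 1 sample. For acute tacrolimus against no drug, Saa3 ran from -3.18 to 0.57 and Hp from -2.18 to 0.32. For the NSG response, Hp was 0.62 with the covariate, 0.51 within Imm2 and -0.70 to 0.65 without 1 sample, Ptx3 was 1.17, 1.08 and -0.97 to 0.49, and Lcn2 ran from -0.23 to 0.89. For the Rag2-/- response Lcn2 ran from -0.21 to 1.06. The cause of these changes was not tested. Where leaving out a sample left a single one, the spread was taken from the other groups. In the stroke contrasts, 254 of 272 alternative values of the 5 genes moved by less than the spread between samples and 0 changed sign.

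The count of genes called for stroke was 1244 in WT mice (712 with the covariate, 707 within Imm2, 4579 with no minimum fold), 440 in WT-Tacr acute (31, 35 and 1454, and 21 in a fit of only these groups), 2636 in WT-Tacr delayed (722 with the covariate, 9393 with no minimum), 737 in Rag2-/- (1402 with no minimum) and 933 in NSG mice (549 in a fit of only these groups, 3726 with no minimum). For delayed against acute tacrolimus it was 979, with 423 under the covariate, 0 within TF and 0 in a fit of only these groups, and 0 to 1927 without 1 sample. Without 1 sample it was 23 (without acute replicate 3) to 911 (without acute replicate 1) for WT-Tacr acute, 380 (without stroked replicate 1) to 758 for Rag2-/- mice, 0 to 689 for acute and 0 to 227 (without stroked WT replicate 4) for delayed tacrolimus against no drug. For the NSG response it was 2, with 69 by DESeq2 and 0 to 117 without 1 sample.

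Replicate numbers are shared by some non-stroked samples of different strains, but deviations of same-numbered samples did not go together (r of -0.258, 0.108 and -0.135 for NSG with WT, 0.0775 and 0.0826 for Rag2-/- with WT), so they share only a number. With the replicate block Serpina3n was at 1.46 in NSG against WT mice and at 1.47 in the same samples with no replicate block, with 318 against 411 genes called, and in Rag2-/- against WT mice 7 genes were called with the block and 1 without.

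Saa3 and Hp rest on few reads, so that differences between groups below several-fold were often not detectable at this depth. Non-stroked levels of Lcn2 and Ptx3 rest on 1 to 15 reads a sample. The WT-Tacr acute group holds 3 mice that differ widely, all non-stroked samples come from 1 cohort, and the delayed group from the other, so that cohort and treatment cannot be fully told apart.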
